A study of Danio rerio with 16 samples.

Results

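Phosphate-buffered saline (PBS) was injected into the control zebrafish embryos of this series, and the 8 PBS libraries, of 16 libraries in all, compare those embryos at 4 and at 0.5 hours post injection (hpi). The libraries were chosen by their titles, 4 for PBS at 4 hpi and 4 for PBS at 0.5 hpi, and no measured value entered the choice. All groups were ABTL embryos, 4 days post fertilization (dpf), with no mutation or transgene named in the labels, and each embryo received 1 nl into the caudal aorta from a glass capillary. Each library was RNA of 1 pool of 10 whole embryos, so a value is the average of a pool over all cell types. The remaining 8 libraries, 4 at 4 hpi and 4 at 0.5 hpi, came from embryos given human recombinant insulin in the same way. The study is about excess insulin, insulin resistance and the phosphatase gene ptpn6, and the PBS embryos are its controls at each time. The labels name no uninjected embryos and no hour of injection or sampling. The time since injection, the time of day and development over the interval therefore cannot be told apart.

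Puncture of skin and vessel sets off a known order of transcription in fish and mammals. Early response genes such as fos and egr1 are switched on within minutes and decline again, inflammatory genes driven by NF-kB follow, and epithelial cells near a wound make matrix proteases and basement membrane proteins. Zebrafish cells also hold a circadian clock, in which Clock and Bmal proteins activate per and cry genes, and Per and several Cry proteins repress Clock and Bmal. In zebrafish, light acts directly on tissues and induces some per, cry and DNA repair genes.

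Depth was alike in both groups, with 7212883 to 9595280 counts per library at 4 hpi and 7584357 to 9628705 at 0.5 hpi. Mitochondrial genes took 3.68 to 4.21% of counts at 4 hpi and 3.57 to 3.97% at 0.5 hpi. For most genes, replicates 2 and 3 of PBS at 0.5 hpi were close to counting error apart: 89 of 20557 genes differed between them and the median chi-square ratio was 1.15, against 675 to 9138 genes and ratios of 1.59 to 8.79 in all other pairs within a group. The mean chi-square per degree of freedom did not set the pair apart. It was 2.88, and other pairs had 2.51 to 30.03. Replicates 2 and 3 were summed and counted as 1 sample, so n is 4 at 4 hpi and 3 at 0.5 hpi. Kept as 2 libraries, they gave 2946 genes that passed, against 1926 when summed. Replicate 1 of PBS at 0.5 hpi stood apart. It held 2.91 CPM (counts per 1000000 counts of the library) of wdr90, where the other PBS libraries of both times held 33.3 to 68.0 CPM, and its summed erythroid markers were 7828 CPM, against 2758 to 3200 CPM at 4 hpi and 2525 to 3434 CPM in the other 0.5 hpi samples. The count of genes that passed is given below with and without it. File headers name sequencing lane 5 for replicates 2, 3 and 4 at 4 hpi and lane 2 for replicates 2 and 3 at 0.5 hpi, and no lane for the others, so lane and time cannot be told apart between those libraries. Nothing in the labels says that pools of a group came from separate clutches or days, and p-values measure the spread between these pools.

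Genes that rose at 4 hpi included the matrix protease genes mmp13a and mmp9, inflammatory genes such as il1b and relb, leptin b, the gp130 gene il6st, the clock gene per2, the photolyase gene cry5, and the lipid genes abca1a and srebf1. Genes that fell included the early response genes egr1 and fos, 18 mitotic genes, the collagen chaperone gene serpinh1b and 7 splicing factor and CLK kinase genes. Of 21929 genes tested, 1926 passed (8.78%) at an adjusted p under 0.05 in edgeR's quasi-likelihood test, 1150 of them higher at 4 hpi (5.24%) and 776 lower (3.54%). The shares of 5.24% and 3.54% are those against which the list counts below are to be read. A change of over 2-fold was found for 324 of the higher and 91 of the lower genes, and the median over all genes tested was -0.01 on the log2 scale. In 1846 of the 1926 genes the 4 libraries at 4 hpi did not overlap the 3 samples at 0.5 hpi, against 23.3% of all genes tested. The call and the overlap rest on the same values, so lack of overlap in a gene that passed is no separate support. The 10 largest changes named each way were picked among genes without overlap, so their lack of overlap is no separate result. The count depended on single libraries. It was 1044 without replicate 1 of 0.5 hpi, 3329 without replicate 4 of 0.5 hpi, and 1098, 940 and 1200 without replicates 1, 2 and 4 of 4 hpi. Scaled by library totals alone, 1972 genes passed, 77.0% of them higher, compared with 59.7% higher here, and the median moved to 0.07. Of 170 gene entries named below that passed, 108 also passed in every fit that left out a single library, and those that did not are named where they are described. Replicates 2 and 3 of 0.5 hpi were left out 1 at a time, with the other kept. These fits therefore do not show what depends on the sample that the pair forms. Without the 4 libraries of both injections that held under 10 CPM of wdr90, replicate 1 of 0.5 hpi among them, 20 of 64 list counts above 0 were over 1.5 times as large and 2 were over 1.5 times smaller.

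The 7 PBS samples spread mainly by the 0.5 hpi group. On the first principal component, with 49.7% of the variance, the 4 hpi libraries lay between -29.6 and -18.9, and the 0.5 hpi samples at 78.0 for replicate 1, 24.4 for the summed pair and -3.0 for replicate 4. In a fit of only those libraries whose header names no lane, 1 at 4 hpi and 2 at 0.5 hpi, 9 genes passed, all higher at 4 hpi. The spread in that fit came from the 2 PBS and 3 insulin libraries at 0.5 hpi, and the lone PBS library at 4 hpi was assumed to vary like them. Among the 9 were acsl4l, mmp9, mmp13a, timp2b, irak3, cbx7a, lepb and si:ch1073-228p2.2. These are not separate samples from those of the whole comparison.

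**Figure D1:**
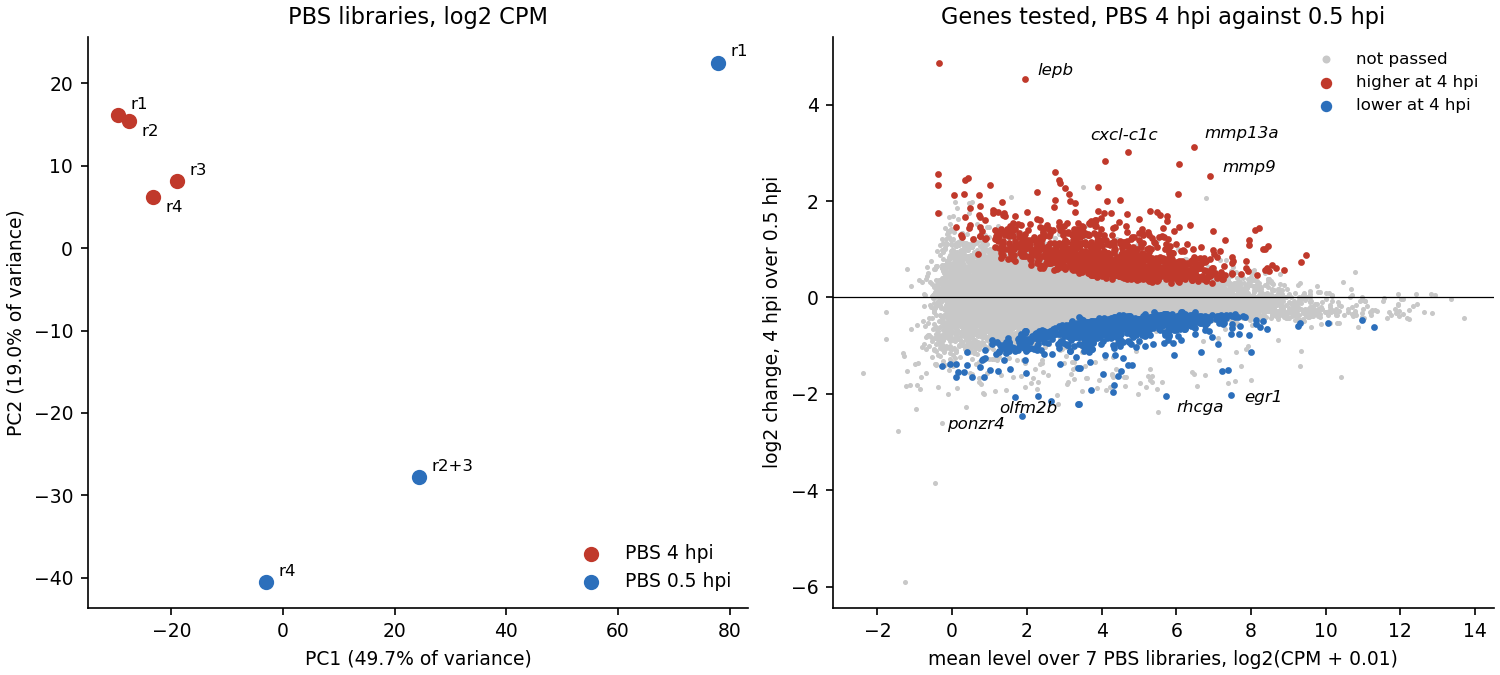
Left, principal components of the 7 PBS samples (red, 4 hpi; blue, 0.5 hpi, with replicates 2 and 3 summed; axes are component scores with their share of variance). Right, each of the 21929 genes tested, with its mean level over the PBS samples as log2(CPM + 0.01) on the x axis and its log2 change on the y axis; 1150 genes were higher at 4 hpi (red) and 776 lower (blue), and the 4 hpi libraries lie close together while the 0.5 hpi samples are spread out.

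A pair of matrix protease genes rose, in a list with as many members lower as higher. The gene mmp13a on chromosome 10, which encodes a collagenase, had 170, 192, 123 and 91.0 CPM at 4 hpi, against 14.7, 17.1 and 17.6 CPM at 0.5 hpi. Every 4 hpi library was above every 0.5 hpi sample, and replicates 1 and 2 were the highest. The log2 change was 3.13 with a standard error (SE) of 0.27 and an adjusted p of 1.60e-05 from edgeR. The gene mmp9 on chromosome 8, which encodes a gelatinase made by wound epithelium and leukocytes, had 219, 233, 168 and 124 CPM at 4 hpi, against 23.6, 42.0 and 31.4 CPM at 0.5 hpi. It was higher by 2.51 (log2, SE 0.33, adjusted p = 6.56e-04), again with no overlap. The protease inhibitor gene timp2b averaged 63.8 ± 18.7 CPM at 4 hpi (SD, n = 4) and 18.6 ± 2.36 CPM at 0.5 hpi (SD, n = 3), a log2 change of 1.78. Of 43 tested genes of wound matrix and regeneration, these 3 and timp2a rose and 4 fell, namely s100v2, tgm1l1, krt17 and tnc, and the list's median was -0.06. The 4 that fell changed by -0.54 to -0.41, and 1 of the list was lower without replicate 1 of 0.5 hpi, as also without replicate 1 or 2 of 4 hpi, with 2 lower without replicate 4 of 4 hpi. Members higher numbered 3 without replicate 1 of 0.5 hpi, and timp2a, s100v2, tgm1l1, krt17 and tnc did not pass in 1 or more fits with a library left out (highest adjusted p 0.235, for tnc).

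Large rises were also found for a lipid gene and for a gene with no described role. The acyl-CoA synthetase gene acsl4l on chromosome 5 had 142, 117, 81.6 and 83.2 CPM at 4 hpi, against 13.2, 16.5 and 17.1 CPM at 0.5 hpi. Its adjusted p was 5.04e-07, with a log2 change of 2.76 and an SE of 0.20. The groups did not overlap, and replicates 1 and 2 of 4 hpi were the highest. CABZ01087111.1 on chromosome 16, which the tables give no other name, was higher by 2.30 (SE 0.22).

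Leptin b and several genes of the gp130 pathway rose. Leptin b is a secreted hormone that zebrafish induce in injured fin and heart, and gp130 is the shared receptor subunit of the interleukin 6 and 11 families, which signals through JAK kinases and STAT3 and is held back by SOCS3. Of 28 tested genes of leptin, gp130, STAT3 and SOCS, 9 were higher at 4 hpi (32.1%) and none was lower. Among all genes tested 5.24% were higher. The list's median was 0.27, against -0.01 over all genes. Without replicate 1 of 0.5 hpi the list's median was 0.08. The ligand gene lepb on chromosome 4 had 10.1, 9.99, 3.19 and 2.98 CPM at 4 hpi, against 0, 0.533 and 0.12 CPM at 0.5 hpi. These were 228 counts at 4 hpi and 9 counts at 0.5 hpi, a ratio of 24.9 after scaling by library size, with a 95% interval of 12.9 to 55.1 that covers counting error only. The adjusted p in edgeR was 0.00429, and replicates 1 and 2 of 4 hpi held most of the counts.

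Among the receptor and signalling genes of the pathway 8 rose. The gene il6st, which encodes gp130, had 37.1, 41.8, 37.5 and 32.6 CPM at 4 hpi, against 12.6, 11.5 and 23.2 CPM at 0.5 hpi, a log2 change of 1.26 (SE 0.22, adjusted p = 0.00257). The co-receptor genes lifrb and lifra were higher by 1.29 and 1.48, and the leptin receptor gene lepr by 0.52. The kinase gene jak1 and the factor gene stat3 were higher by 0.34 and 0.52. The inhibitor gene socs3b had 104, 99.4, 72.2 and 54.6 CPM at 4 hpi, against 34.2, 38.3 and 42.4 CPM at 0.5 hpi, a log2 change of 1.11 (SE 0.18, adjusted p = 0.00150), and socs2 was higher by 0.86. Members higher numbered 7 without replicate 1 of 0.5 hpi, and without replicate 1 or 2 of 4 hpi 5 were. lepr, lifra, jak1, stat3 and socs2 each did not pass without at least 1 library, with a highest adjusted p of 0.123 for stat3, and lifra did not without the 4 libraries low in wdr90 (0.0546). For lepr this held in most fits with a single library left out.

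Part of the cytokine and prostaglandin enzyme genes rose. Of 24 tested cytokines, chemokines and prostaglandin enzymes 10 were higher (41.7%), none was lower, 14 did not pass, the median was 0.95, and 7 were higher without replicate 1 of 0.5 hpi. The share higher over all genes tested was 5.24%. The interleukin 1 beta gene il1b on chromosome 10, an early mediator of inflammation, had 33.0, 33.3, 12.4 and 16.8 CPM at 4 hpi, against 4.74, 8.93 and 7.22 CPM at 0.5 hpi. Its log2 change was 1.76 (SE 0.31, adjusted p = 0.00284), and it did not pass without the 4 libraries low in wdr90 (log2 change 1.54, adjusted p = 0.0546). The groups did not overlap, and replicates 1 and 2 of 4 hpi were the highest. The chemokine gene cxcl-c1c had 66.9, 53.8, 19.8 and 27.9 CPM at 4 hpi, against 3.16, 7.40 and 4.57 CPM at 0.5 hpi, a log2 change of 3.01 (SE 0.60, adjusted p = 0.0103), and did not pass without replicate 1 of 0.5 hpi (adjusted p = 0.0511).

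Genes of the gp130 cytokines and of macrophage growth factors were low but also rose. il11b had 46 counts at 4 hpi and 1 count at 0.5 hpi, a ratio of 45.2 with a 95% counting interval of 7.71 to 1820, and il11a had 87 counts at 4 hpi and 18 counts at 0.5 hpi, a ratio of 4.74 with an interval of 2.83 to 8.38. Both gene IDs of the colony-stimulating ligand il34 were higher, by 1.68 and 1.32, as was the interleukin 12 subunit gene il12a, with 82 counts at 4 hpi and 23 counts at 0.5 hpi and a ratio of 3.5 (interval 2.18 to 5.83). The enzyme genes irg1, which makes the antimicrobial metabolite itaconate, and ptges, which makes prostaglandin E, were higher by 2.27 (SE 0.29) and 1.29 (SE 0.21). irg1 averaged 12.4 ± 1.47 CPM at 4 hpi (SD, n = 4) and 2.63 ± 0.719 CPM at 0.5 hpi (SD, n = 3). The remaining member that rose, 1 of the gene IDs named si:ch211-122l24.4, was higher by 1.42. The related gene irg1l had 158, 175, 171 and 151 CPM at 4 hpi, against 81.7, 19.3 and 17.8 CPM at 0.5 hpi, and did not pass (adjusted p = 0.140), though the groups did not overlap. The cyclooxygenase genes ptgs2a and ptgs2b, at -0.43 and 0.79, and the tumour necrosis factor gene tnfb, at 1.11, did not pass either, with groups that overlapped. il11a, il12a and 1 gene ID of il34 each did not pass without at least 1 library (0.0643, 0.0615 and 0.0654 at most).

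NF-kB genes that rose included subunits and inhibitors. Of 33 tested NF-kB and interferon genes, 13 were higher (39.4%, against 5.24% of all genes tested) and none lower, with a median of 0.41. There were 9 higher without replicate 1 of 0.5 hpi, 8 without replicate 1 of 4 hpi and 7 without replicate 2 of 4 hpi. Among subunits, relb had 42.7, 35.3, 20.8 and 21.5 CPM at 4 hpi, against 14.2, 16.6 and 13.1 CPM at 0.5 hpi (log2 change 1.03, SE 0.21, adjusted p = 0.00521), and did not pass without the 4 libraries low in wdr90 (adjusted p = 0.0511). The subunit genes rela and nfkb2 were higher by 0.66 and 0.73. Among inhibitors, the co-factor bcl3 on chromosome 16 had 13.7, 12.1, 10.1 and 6.19 CPM at 4 hpi, against 1.81, 1.53 and 1.93 CPM at 0.5 hpi, a log2 change of 2.60 (SE 0.29, adjusted p = 3.91e-05). The Toll receptor brake irak3 was higher by 2.44 (SE 0.38), the inhibitor genes nfkbiaa and nfkbie by 0.72 and 0.87, and the deubiquitinase gene tnfaip3 by 1.34. The flagellin receptor genes tlr5a and tlr5b were higher by 1.06 and 0.96, both gene IDs of tnfaip2b by 1.48 and 1.39, and the interferon factor gene irf1b by 2.01. irf1b, nfkbiaa, tnfaip3, tlr5a, tlr5b and both tnfaip2b IDs each did not pass without at least 1 library (highest adjusted p 0.0968, for tlr5b), and irf1b, nfkbiaa and tlr5b did not without the 4 libraries low in wdr90.

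Replicates 1 and 2 of 4 hpi ran above replicates 3 and 4 in these groups. Both were above both others in 8 of the 10 cytokine genes that rose, 11 of the 13 NF-kB genes, 7 of the 9 leptin and gp130 genes and all 4 matrix genes that rose. Over all genes tested that order was seen in 20.3%, and among all genes higher at 4 hpi in 39.5%. Summed cytokine genes were 662 and 658 CPM in replicates 1 and 2 of 4 hpi and 522 and 536 CPM in replicates 3 and 4, all above the 385 to 422 CPM of the 0.5 hpi samples. Replicate 1 has no lane in its header and replicate 2 shares lane 5 with replicates 3 and 4.

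Neutrophil markers moved both ways, and no macrophage marker rose. Of the neutrophil list 29.4% passed and of the macrophage list 4.5%. Over all genes tested 8.78% passed and 5.24% were higher, so the macrophage counts are near or below those shares. In a whole embryo, more cells of a type and more RNA per cell cannot be told apart. Of 17 tested neutrophil markers 3 rose, namely mmp13a, mmp9 and ncf1, a subunit of the NADPH oxidase, and 2 fell, namely cxcr4b and mpx. The defining gene mpx, neutrophil myeloperoxidase, had 12.9, 9.38, 11.2 and 10.4 CPM at 4 hpi, against 42.4, 19.0 and 14.2 CPM at 0.5 hpi (log2 change -1.20, adjusted p = 0.0441), and was singled out after its values were seen. It did not pass without replicate 1 of 0.5 hpi (adjusted p = 0.239), nor in most fits with a single library left out. Replicate 1 of 0.5 hpi was the highest, as for the lysozyme gene lyz, which had 19.6, 17.7, 21.7 and 19.2 CPM at 4 hpi, against 52.0, 22.0 and 18.1 CPM at 0.5 hpi, and did not pass. The summed neutrophil list, which holds mmp9 and mmp13a, was 394 to 630 CPM at 4 hpi and 223 to 324 CPM at 0.5 hpi. In every leave-one-out fit 3 markers were higher. Lower markers numbered 0 without any 1 of the 4 PBS libraries at 4 hpi, and 1 without replicate 1 or 3 of PBS at 0.5 hpi, replicate 2 of insulin at 0.5 hpi or replicate 2, 3 or 4 of insulin at 4 hpi. The marker cxcr4b did not pass without replicate 3 of PBS at 0.5 hpi or any 1 PBS library at 4 hpi (edgeR adjusted p 0.0785 at most).

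Of 22 tested macrophage markers none rose, and CD68, a lysosomal membrane protein of macrophages, fell by 0.59, which did not pass without replicate 1 of 0.5 hpi (adjusted p = 0.151). No macrophage marker was lower without replicate 1, 2 or 4 of PBS at 4 hpi, and 2 were without replicate 3 of insulin at 0.5 hpi. The macrophage perforin gene mpeg1 had 5.05, 4.38, 4.51 and 3.57 CPM at 4 hpi, against 10.0, 6.33 and 6.02 CPM at 0.5 hpi, and did not pass (adjusted p = 0.0907). The summed macrophage list was 938 to 1042 CPM at 4 hpi and 937 to 1049 CPM at 0.5 hpi. None of these defining markers was at 0 in any PBS sample. Their part in the rise of cytokine and protease genes was not tested. Of 38 tested C/EBP, acute-phase and complement genes and 39 liver plasma protein genes, none passed in either direction.

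**Figure D2:**
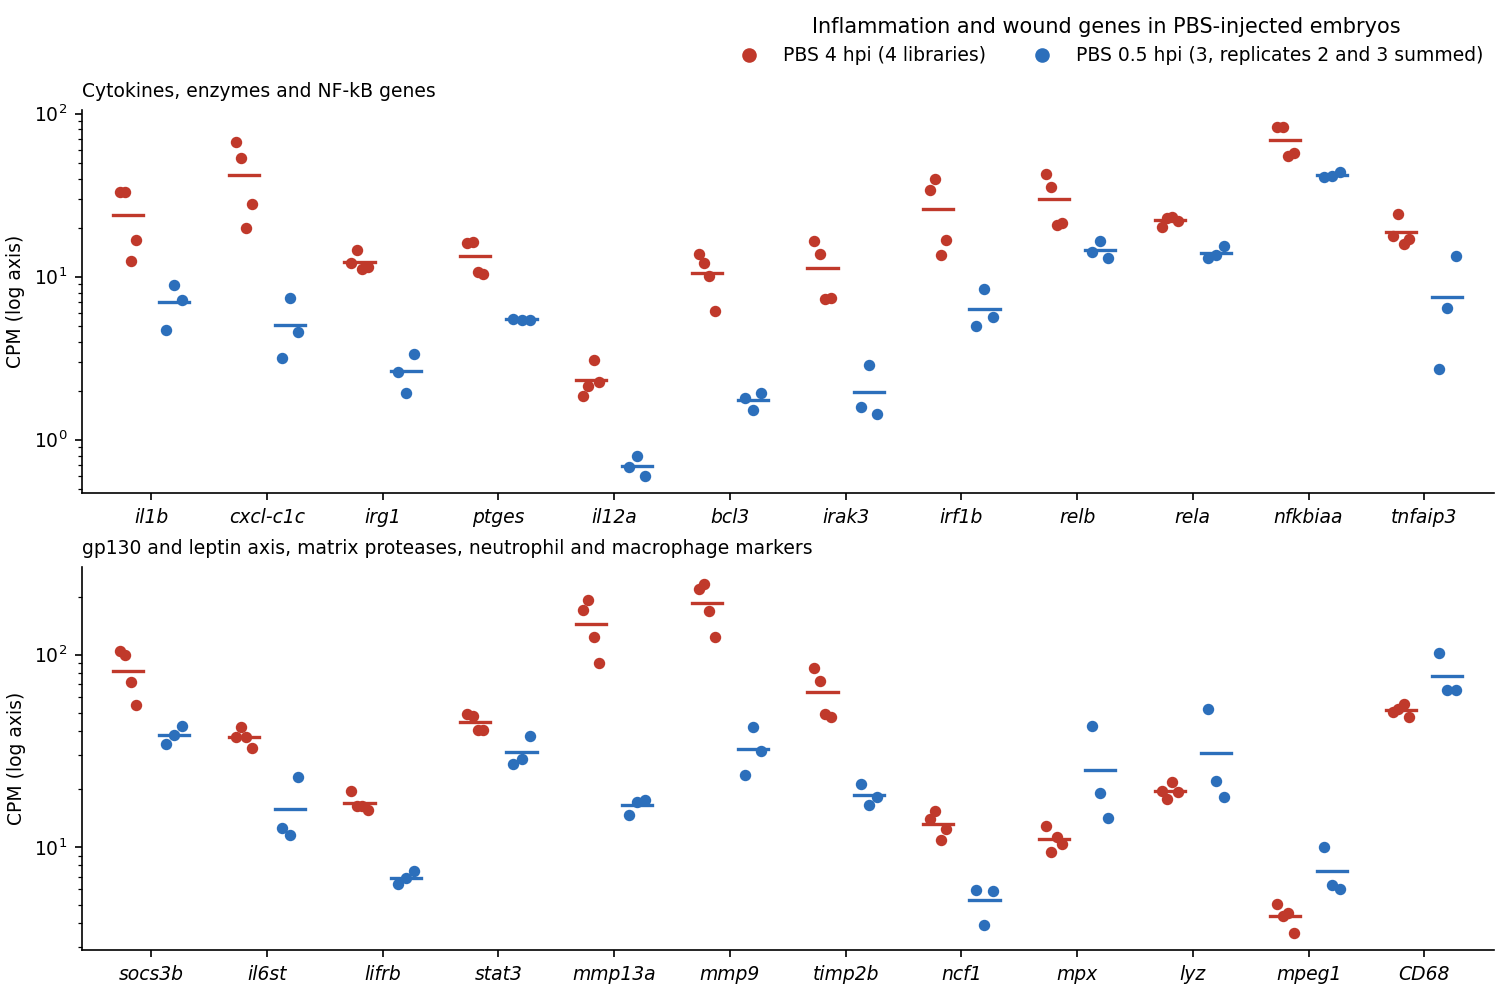
CPM on a log axis for 12 cytokine, enzyme and NF-kB genes (top) and 12 genes of the gp130 axis, matrix proteases and leukocyte markers (bottom). Red points are the 4 PBS libraries at 4 hpi and blue points the 3 PBS samples at 0.5 hpi, with a bar at each mean; mmp13a at 91.0 to 192 CPM lies above all 0.5 hpi points, and mpx at 9.38 to 12.9 CPM lies below them.

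Part of the early response genes ran the other way. Over all genes tested 3.54% fell. The zinc-finger factor gene egr1 on chromosome 14 had 66.6, 70.9, 93.5 and 75.0 CPM at 4 hpi, against 264, 307 and 367 CPM at 0.5 hpi. All 4 libraries at 4 hpi were below all 0.5 hpi samples. The log2 change was -2.03 (SE 0.17, adjusted p = 2.96e-06). Of 35 tested EGR, NR4A and other early genes 8 fell and 1 rose, with a median of -0.17. Those that fell were egr1, egr2a, egr3, the antiproliferative gene btg2 (-1.53), the RNA-decay factor gene zfp36l2 (-0.60), the matricellular gene cyr61 (-1.20), IER2 (-1.01) and mycb (-0.43). The serum response factor gene srfa rose by 0.91. Lower genes numbered 10 and higher genes 1 without replicate 1 of 0.5 hpi, and without replicate 4 of 4 hpi 5 were lower. egr3, mycb and IER2 each did not pass without at least 1 library, replicate 4 of 4 hpi in all 3 cases.

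AP-1 is the dimer of Fos and Jun proteins, and 4 of its 13 tested genes fell, with none higher. fos on chromosome 20 had 93.6, 99.6, 108 and 76.7 CPM at 4 hpi, against 178, 254 and 368 CPM at 0.5 hpi (log2 change -1.50, SE 0.34, adjusted p = 0.0174). The lymphoid AP-1 partner gene batf had 12.4, 9.38, 8.03 and 5.95 CPM at 4 hpi, against 19.7, 28.3 and 32.0 CPM at 0.5 hpi, a log2 change of -1.58 (SE 0.27, adjusted p = 0.00198). Both were separate between the groups, and 0.5 hpi replicate 1 was the lowest of its group in all 4 genes. junbb fell by 0.76 and jun by 0.52, and jun overlapped between the groups. Members lower numbered 4 without replicate 1 of 0.5 hpi, and 2 without replicate 4 of 0.5 hpi or replicate 1, 3 or 4 of 4 hpi, where jun and junbb did not pass. jun also did not pass without replicate 2 of PBS at 4 hpi (edgeR adjusted p = 0.0626). The same held for jun without replicate 4 of insulin at 0.5 hpi or replicate 2 or 4 of insulin at 4 hpi. The repressor gene jdp2, outside this list, fell by 1.91 (SE 0.31, adjusted p = 0.00150). fosb, fosl1a, junba and atf3 had changes of -0.31, 0.34, -0.22 and 0.43, with groups that overlapped, and did not pass.

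Of 20 tested Kruppel-like factors, klf2b, klf2a and klf11a fell by 0.88, 0.58 and 0.50, and 2 rose, among them klf6b by 0.97. klf2a and klf2b are known as genes that blood flow induces in endothelium. Of 17 MAPK feedback genes 2 rose (spred3 and dusp5, by 0.57 and 0.83) and 2 fell (spry2 and il17rd, by 0.46 and 0.47). Without replicate 1 of 0.5 hpi 1 MAPK gene was higher and 1 lower, and without replicate 1, 2 or 4 of 4 hpi none was lower. Kruppel-like factors that rose numbered 4 without replicate 4 of 0.5 hpi and 1 without replicate 1, 2 or 3 of 4 hpi. klf11a did not pass without replicate 1 of 4 hpi (adjusted p = 0.0574), and dusp5, spry2 and il17rd did not without replicate 1 of 0.5 hpi. Of all genes tested 5.24% were higher and 3.54% lower.

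The clock genes changed unevenly. Of 11 tested per and cry genes, not all of which encode repressors of the loop, 4 were higher at 4 hpi, 1 was lower and 6 did not pass, with a median of 0.15. These counts were the same without replicate 1 of 0.5 hpi. per2 on chromosome 2, a gene that light induces in zebrafish, had 282, 347, 330 and 344 CPM at 4 hpi, against 112, 141 and 173 CPM at 0.5 hpi. The log2 change was 1.20 (SE 0.20, adjusted p = 0.00174), with no overlap. cry1b had 76.8, 71.8, 64.6 and 68.8 CPM at 4 hpi, against 31.9, 34.4 and 41.4 CPM at 0.5 hpi, a log2 change of 0.97 (SE 0.12, adjusted p = 7.54e-05).

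The remaining per and cry genes that passed were per3, 1 of the gene IDs named cry3, and cry2b. per3 had 127, 132, 133 and 131 CPM at 4 hpi, against 39.5, 58.2 and 93.4 CPM at 0.5 hpi, a log2 change of 1.04, and cry3 was higher by 0.57. cry2b fell, with 160, 172, 160 and 143 CPM at 4 hpi, against 200, 283 and 317 CPM at 0.5 hpi (log2 change -0.75, SE 0.17, adjusted p = 0.0105). The 4 hpi libraries were close together, and replicate 1 of 0.5 hpi was the lowest of its group for all of these. per1a averaged 77.9 ± 8.91 CPM at 4 hpi (SD, n = 4) and 70.6 ± 13.1 CPM at 0.5 hpi (SD, n = 3), and per1b 225 ± 8.66 CPM at 4 hpi and 243 ± 26.6 CPM at 0.5 hpi. Their log2 differences were 0.14 and -0.11, with groups that overlapped, and cry2a had -0.08, also with overlap. A further gene ID named cry3, and cry4, did not pass either, and cry1a, at 0.36, had groups that did not overlap but an adjusted p of 0.112.

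The activators of the loop all had positive changes, 5 of 11 passed, and none fell. Their median was 0.49. npas2, a partner that can stand in for Clock, had 19.7, 24.5, 21.1 and 23.9 CPM at 4 hpi, against 4.96, 6.06 and 10.7 CPM at 0.5 hpi, a log2 change of 1.64 (SE 0.31, adjusted p = 0.00485). The Bmal genes arntl2 and arntl1a were higher by 0.85 and 0.45, and the ROR receptor genes rorab and rorcb by 0.61 and 1.09. The gene clock, at 0.36, and arntl1b, at 0.51, did not pass, though their groups did not overlap. Replicate 1 of 0.5 hpi was the lowest sample for all 5 that passed, and the count was 2 without it, 8 without replicate 4 of 0.5 hpi, and 3 and 2 without replicates 1 and 2 of 4 hpi. arntl1a, rorab and rorcb were the 3 that did not pass without replicate 1 of 0.5 hpi. Over the 22 genes of the per and cry list and the activator list and the pair of ptpn6 gene IDs, an exact two-sided permutation test of 4 libraries against 3 samples cannot go below p = 0.0571, and 14 of the 24 reached that smallest value. It is reached whenever the groups do not overlap, as they did not in 23.3% of all genes tested, so it adds nothing to the lack of overlap.

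Part of the clock outputs rose after PBS. Of 29 tested Rev-erb, PAR bZIP and other clock-related genes, counted here as outputs, 4 rose (13.8%) and none fell, with a median of 0.03. Over all genes tested 5.24% were higher. The PAR bZIP factor gene tefa had 326, 318, 295 and 337 CPM at 4 hpi, against 178, 130 and 145 CPM at 0.5 hpi, a log2 change of 1.08 (SE 0.12, adjusted p = 5.56e-05). dbpa, of the same family, lonrf1l and the casein kinase gene csnk1e were higher by 0.71, 0.76 and 0.58. The Rev-erb gene nr1d1 had 149, 161, 141 and 152 CPM at 4 hpi, against 130, 233 and 310 CPM at 0.5 hpi, and did not pass. There were 3 outputs higher and 2 lower without replicate 1 of 0.5 hpi, where dbpa did not pass (adjusted p = 0.106). Without the 4 libraries low in wdr90, 5 outputs were higher and 8 lower, with a median of -0.02.

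Light-responsive DNA repair genes were higher in 5 of 13 tested, with none lower and a median of 0.20, and 4 were higher without replicate 1 of 0.5 hpi. cry-dash on chromosome 24, of the photolyase family, had 79.8, 76.5, 72.6 and 78.8 CPM at 4 hpi, against 22.2, 23.1 and 26.4 CPM at 0.5 hpi. The log2 change was 1.69 (SE 0.24, adjusted p = 5.99e-04), and both groups were tight and apart. cry5, the photolyase that repairs photoproducts of ultraviolet light, had 19.8, 24.6, 30.2 and 33.9 CPM at 4 hpi, against 10.0, 6.93 and 7.22 CPM at 0.5 hpi (log2 change 1.76, SE 0.33). The nucleotide excision repair genes ddb2, xpc and ercc6 were higher by 1.49, 1.17 and 0.80. xpc had 33.7, 31.8, 32.2 and 37.5 CPM at 4 hpi, against 15.2, 15 and 14.8 CPM at 0.5 hpi, and did not pass without replicate 1 of 0.5 hpi (adjusted p = 0.0874) or replicate 4 of 4 hpi (0.0539).

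**Figure D3:**
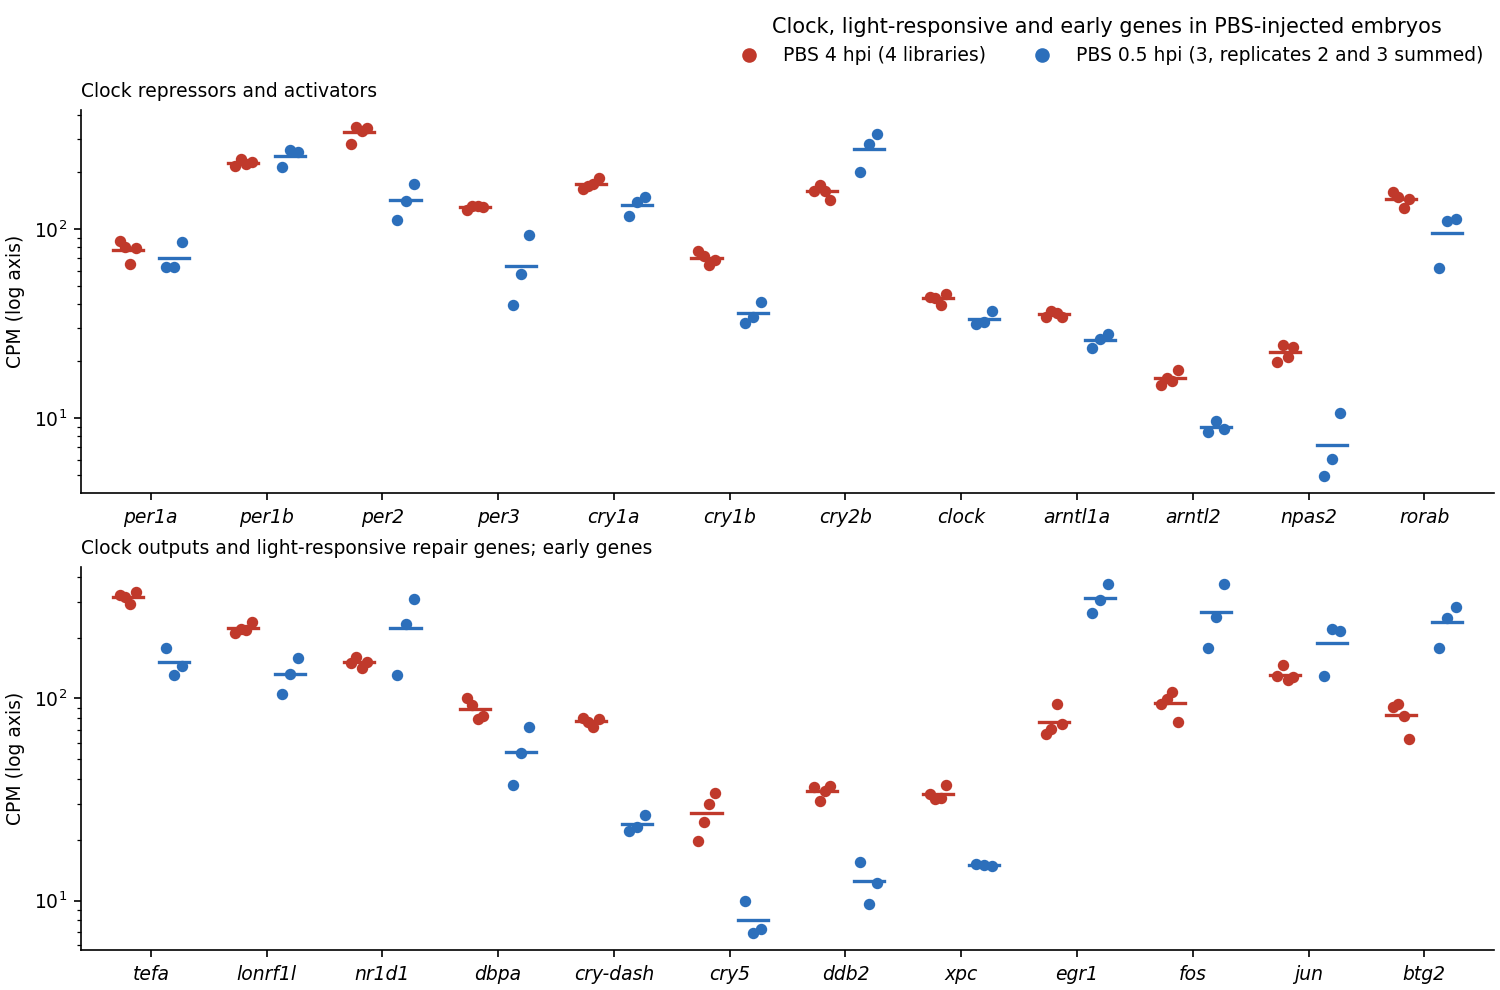
CPM on a log axis for 12 clock repressor and activator genes (top) and 12 clock output, repair and early genes (bottom). Red points are the 4 PBS libraries at 4 hpi and blue points the 3 PBS samples at 0.5 hpi, with a bar at each mean; per2 at 282 to 347 CPM and cry-dash at 72.6 to 79.8 CPM lie above all 0.5 hpi points, egr1 at 66.6 to 93.5 CPM lies below them, and per1a and per1b overlap.

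Lipid genes that rose span synthesis, uptake and export. Of 35 tested lipogenesis genes 6 rose and 1 fell, and of all genes tested 5.24% rose and 3.54% fell. The sterol-element factor gene srebf1 had 48.0, 55.4, 60.7 and 59.6 CPM at 4 hpi, against 16.9, 24.5 and 33.8 CPM at 0.5 hpi (log2 change 1.16, SE 0.22, adjusted p = 0.00374). The pair of gene IDs named fasn, fatty acid synthase, were higher by 0.94 and 1.05, and reads of near-identical copies may be split between them. lpin1, lipin2 and MLXIPL were higher by 1.00, 0.48 and 0.72, and the elongase gene elovl7a fell by 0.95. Of 39 cholesterol genes 5 rose and none fell, with a median of 0.21. abca1a on chromosome 1, the pump that loads cholesterol onto lipoproteins, had 385, 446, 383 and 418 CPM at 4 hpi, against 124, 148 and 178 CPM at 0.5 hpi, a log2 change of 1.44 (SE 0.18, adjusted p = 1.45e-04). The uptake receptor gene ldlr was higher by 0.60, hsd17b12a by 0.74, ggps1 by 0.60 and FDFT1 by 0.61. Without replicate 1 of 0.5 hpi 5 lipogenesis and 5 cholesterol genes were higher, and without the 4 libraries low in wdr90 10 and 15 were. FDFT1 and MLXIPL each did not pass without at least 1 library (0.112 and 0.142 at most), and MLXIPL did not in most fits with a single library left out.

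Fasting and insulin pathway genes showed mixed changes. Of gluconeogenesis and fasting genes 14.6% passed, of insulin signalling genes 11.7% and of glycolysis and glucose uptake genes 4.1%. Over all genes tested 8.78% passed, so the insulin signalling count is near that share and the glycolysis count below it. txnipb, an alpha-arrestin that restrains glucose uptake, had 9.84, 13.1, 10.1 and 12.9 CPM at 4 hpi, against 27.9, 42.1 and 36.5 CPM at 0.5 hpi. It fell by 1.63 on the log2 scale (SE 0.22, adjusted p = 3.13e-04), while foxo1a, a factor that insulin signalling keeps out of the nucleus, and its muscle atrophy target fbxo32 were higher by 1.10 and 1.30. Of 41 genes of gluconeogenesis and fasting 5 rose and txnipb alone fell, with 3 lower without replicate 4 of PBS at 0.5 hpi or replicate 1 of insulin at 4 hpi, and 2 without replicate 3 of PBS or replicate 1, 2 or 3 of insulin at 0.5 hpi. There were 3 higher without replicate 1 of 0.5 hpi, 2 without replicate 1, 2 or 3 of 4 hpi, and 3 without replicate 4 of 4 hpi. Without the 4 libraries low in wdr90, 6 of this list were higher and 6 lower, and by DESeq2 6 were higher and 3 lower. Of 60 insulin signalling genes 6 rose and 1 fell, with a median of 0.01. Those higher included ptpn1, the phosphatase that acts on the insulin receptor (0.76), the S6 kinase gene rps6kb1a (1.00), pik3cb (0.64) and ptpn11b (0.69). There were 3 higher without replicate 1 of 0.5 hpi or without replicate 2 of 4 hpi, and 10 without replicate 4 of 0.5 hpi. Between 0 and 3 were lower in these fits. The glycolytic activator gene pfkfb3 rose by 1.10 and hk2 by 0.63, the only members among 49 genes of glycolysis and glucose uptake to pass in the fit of all libraries. The number higher was 1 without replicate 1 of 0.5 hpi, 4 without replicate 4 of 0.5 hpi and 0 without replicate 1 or 2 of 4 hpi. Neither hk2 (edgeR adjusted p = 0.0602 and 0.0583) nor pfkfb3 passed without replicate 1 or 2 of 4 hpi. pfkfb3 also did not pass without replicate 1 of 0.5 hpi (0.0714) or without the 4 libraries low in wdr90 (0.0582). ptpn11b did not without replicate 1 of 0.5 hpi (0.113) or replicate 1 or 2 of 4 hpi.

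Of 53 autophagy and lysosome genes 8 were higher and atg5 was lower, with a median of -0.03. Over all genes tested 5.24% were higher and 3.54% lower. The counts of lower genes in this list and in the polyamine list below are near or below the share of 3.54%. mcoln1a, the calcium channel of lysosomes, had 79.0, 69.5, 66.8 and 77.5 CPM at 4 hpi, against 29.4, 31.3 and 33.3 CPM at 0.5 hpi, a log2 change of 1.22 (SE 0.11, adjusted p = 9.15e-06). The lysosomal factor gene tfe3a and the autophagy receptor genes optn and sqstm1 were higher by 1.26, 0.88 and 0.81. Without replicate 1 of 0.5 hpi 4 were higher, and without replicate 1, 2 or 3 of 4 hpi 5 were. Of 41 polyamine and retinoid genes 4 rose and 2 fell, with a median of -0.15; lower members numbered 0 without replicate 2 of 4 hpi, 1 without replicate 1 of 0.5 hpi or replicate 1, 3 or 4 of 4 hpi, 6 without replicate 4 of 0.5 hpi and 4 without replicate 1 of insulin at 4 hpi. odc1, the first enzyme of polyamine synthesis, had 475, 527, 426 and 387 CPM at 4 hpi, against 174, 242 and 237 CPM at 0.5 hpi (log2 change 1.06, SE 0.14, adjusted p = 2.56e-04). Among 29 oxidative stress genes ncf1, keap1a, sqstm1 and hmox1 rose, by 1.34, 0.79, 0.81 and 0.89, and none fell. hmox1 (adjusted p = 0.0323) did not pass without replicate 1 or 4 of 0.5 hpi (0.129 and 0.0501), without any 1 replicate of 4 hpi, or without the 4 libraries low in wdr90 (0.206), and the count was then 3 in each fit with a single library left out.

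Of 61 tested mitotic genes 18 fell (29.5%) and none rose, with a median of -0.42, against -0.01 over all genes. The share of all genes tested that fell was 3.54%. Without replicate 1 of 0.5 hpi the list's median was -0.27. The mitotic kinase gene plk1 had 22.5, 22.3, 26.1 and 28.0 CPM at 4 hpi, against 45.0, 42.2 and 29.7 CPM at 0.5 hpi, a log2 change of -0.66 (SE 0.14, adjusted p = 0.00645). The spindle genes dlgap5, tpx2 and nusap1 fell by 0.69, 0.72 and 0.87, and cdk1 and ccnb1, the kinase and cyclin that start mitosis, by 0.76 and 0.84. Replicate 1 of 0.5 hpi was the highest sample in 15 of the 18, as in 41.9% of all genes tested and 58.0% of all genes that fell. The count was 7 without it, 10 without replicate 2 of 4 hpi and 29 without replicate 4 of 0.5 hpi, with cdk1 and ccnb1 not passing without replicate 1 of 0.5 hpi (adjusted p = 0.0629 and 0.0527). Of 71 DNA replication genes 6 fell and none rose, namely E2F3, ccne2, mcm4, mcm6 and 1 of the gene IDs each of mcm3 and mcm5, with 3 lower without replicate 1 of either time and 15 without replicate 4 of 0.5 hpi; ccne2, mcm4 and mcm5 did not pass without replicate 1 of 0.5 hpi. The same 0.5 hpi replicate 1 held 71418 CPM of summed ribosomal protein genes, against 43212 to 48434 CPM at 4 hpi and 46614 to 55187 CPM in the other 0.5 hpi samples. None of the 80 ribosomal protein genes passed, and 29 were lower without replicate 4 of 0.5 hpi.

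Of 61 splicing factor and CLK kinase genes 7 fell (11.5%, against 3.54% of all genes tested) and none rose. rbm4.2 had 27.7, 22.5, 22.3 and 28.8 CPM at 4 hpi, against 55.1, 53 and 43.2 CPM at 0.5 hpi, a log2 change of -1.0 (SE 0.13, adjusted p = 1.76e-04). rbm4.1, clk2a, clk4a and safb fell by 1.25, 0.75, 0.60 and 0.62. Without replicate 1 of 0.5 hpi 5 were lower and 1 higher, and without replicate 4 of 0.5 hpi 18 were lower. Genes of collagen processing, taken from several lists after their values were seen, were also among those that fell. serpinh1b on chromosome 15, the chaperone of procollagen, had 11.3, 11.7, 13.6 and 14.4 CPM at 4 hpi, against 35.1, 45.4 and 28.9 CPM at 0.5 hpi. It fell by 1.52 (SE 0.25, adjusted p = 0.00194), and its paralogue serpinh1a by 0.78, which did not pass without replicate 1 of 0.5 hpi (adjusted p = 0.0521). The collagen prolyl hydroxylase genes p4ha2 and p4ha1b fell by 1.06 and 0.97, and the lysyl hydroxylase gene plod1a by 0.63. Without replicate 2 of 4 hpi p4ha1b did not pass (0.0574).

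Of 60 cartilage, bone and matrix genes 7 fell and none rose, among them col1a1a and col1a2, by 0.61 and 0.52, which did not pass without replicate 1 of 0.5 hpi (adjusted p = 0.184 and 0.200). The count was 4 without replicate 1 of 0.5 hpi, 15 without replicate 4 of 0.5 hpi, 12 without replicate 1 of insulin at 4 hpi, and 3, 2 and 3 without replicates 1, 2 and 4 of PBS at 4 hpi. In most fits with a single library left out col1a2 did not pass. Of 33 unfolded protein response genes 1 rose and 4 fell, among them the stress kinase gene eif2ak3, by 0.59, and chac1, by 0.62. Lower members numbered 2 without replicate 1 of PBS at 0.5 hpi or any 1 replicate of PBS at 4 hpi, 10 without replicate 4 of PBS at 0.5 hpi and 9 without replicate 1 of insulin at 4 hpi, and none was higher without replicate 1 of PBS at 0.5 hpi or replicate 1 or 2 of PBS at 4 hpi. Of 37 heat-shock and chaperone genes hsf1 and bag3 rose, by 0.85 and 0.77, and 3 fell, serpinh1a and serpinh1b among them. The number lower was between 2 and 5 when single libraries were left out, with 5 lower and 3 higher without replicate 1 of insulin at 4 hpi. Over all genes tested 5.24% were higher and 3.54% lower. The counts of heat-shock and unfolded protein response genes that rose are therefore near or below the share of 5.24%.

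Skin genes moved both ways, 8 higher and 6 lower of 48, with a median of -0.21 and 17 members with a change above 0. Over all genes tested 5.24% were higher and 3.54% lower. The summed list was 21330 to 22603 CPM at 4 hpi and 25939 to 27754 CPM at 0.5 hpi. The junction and adhesion genes itga6b, cldn7b, dspa, pkp1b, epcam, jupa and cdh1 rose by 0.46 to 0.84, and soul5 by 0.71. cldn7b had 270, 254, 178 and 179 CPM at 4 hpi, against 119, 123 and 127 CPM at 0.5 hpi, and in 7 of the 8 genes replicates 1 and 2 of 4 hpi were above replicates 3 and 4. The keratin genes krt17 and krt1-19d and the laminin and collagen genes lama5 and col17a1b fell by 0.39 to 0.66. Lower members numbered 2 without replicate 1 of 0.5 hpi, 3 without replicate 3 of 4 hpi and 1 without replicate 1, 2 or 4 of 4 hpi. Without the 4 libraries low in wdr90, 9 were higher and 14 lower. With replicates 2 and 3 of 0.5 hpi kept as 2 libraries, 11 were higher and 10 lower. Among 36 tested endothelial genes the leukocyte adhesion gene sele rose. It had 20.4, 17.7, 9.68 and 7.86 CPM at 4 hpi, against 3.72, 3.93 and 4.45 CPM at 0.5 hpi (log2 change 1.78, SE 0.31, edgeR adjusted p = 0.00210). In the same list 5 genes fell, klf2a, klf2b and aplnrb among them. There were 3 lower without replicate 1 of 0.5 hpi and 2 without replicate 1 or 2 of 4 hpi. aplnrb, cdh1, epcam, jupa, soul5, krt17, krt1-19d and lama5 each did not pass without at least 1 library (highest adjusted p 0.154, for krt1-19d). For cdh1 this held in most fits with a single library left out.

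The largest falls outside these groups included onzin-related genes, an ammonia transporter gene and genes without a described role. The onzin-related genes ponzr4 and ponzr3 on chromosome 7 fell by 2.46 and 2.21, and the Rh family ammonia transporter gene rhcga by 2.04. ponzr3 had 2.0, 3.67, 4.84 and 5.95 CPM at 4 hpi, against 19.6, 22.7 and 14.9 CPM at 0.5 hpi, and did not pass without replicate 1 of 0.5 hpi (adjusted p = 0.0671) or without replicate 1 or 2 of 4 hpi (0.0558 and 0.0635). The secreted olfactomedin gene olfm2b had 3.19, 3.36, 5.17 and 4.40 CPM at 4 hpi, against 19.9, 19.9 and 17.0 CPM at 0.5 hpi, a log2 change of -2.22 (SE 0.25, adjusted p = 5.69e-05). The forkhead gene foxq1a fell by 1.96. CR548630.2, si:dkey-95h12.2 and si:dkey-95h12.1 fell by 2.14, 2.04 and 1.81, and the last pair, named from 1 clone, lie on chromosome 18. Groups that did not overlap were a condition for naming these genes.

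Tissue lists without any gene that passed were muscle (65 tested), lens (55), proteasome (47), liver plasma proteins (39), intestine (31), islet (24) and exocrine pancreas (20). At an unadjusted p under 0.05 there were 5686 genes over the whole table. Without replicate 4 of 0.5 hpi 5 proteasome genes were lower, and of muscle genes 2 were higher and 4 lower. Without that library 1 or 2 members of the AP-1, leptin and gp130, light repair, oxidative stress, acute-phase, liver, intestine and islet lists also passed in a direction with no call above.

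**Figure D4:**
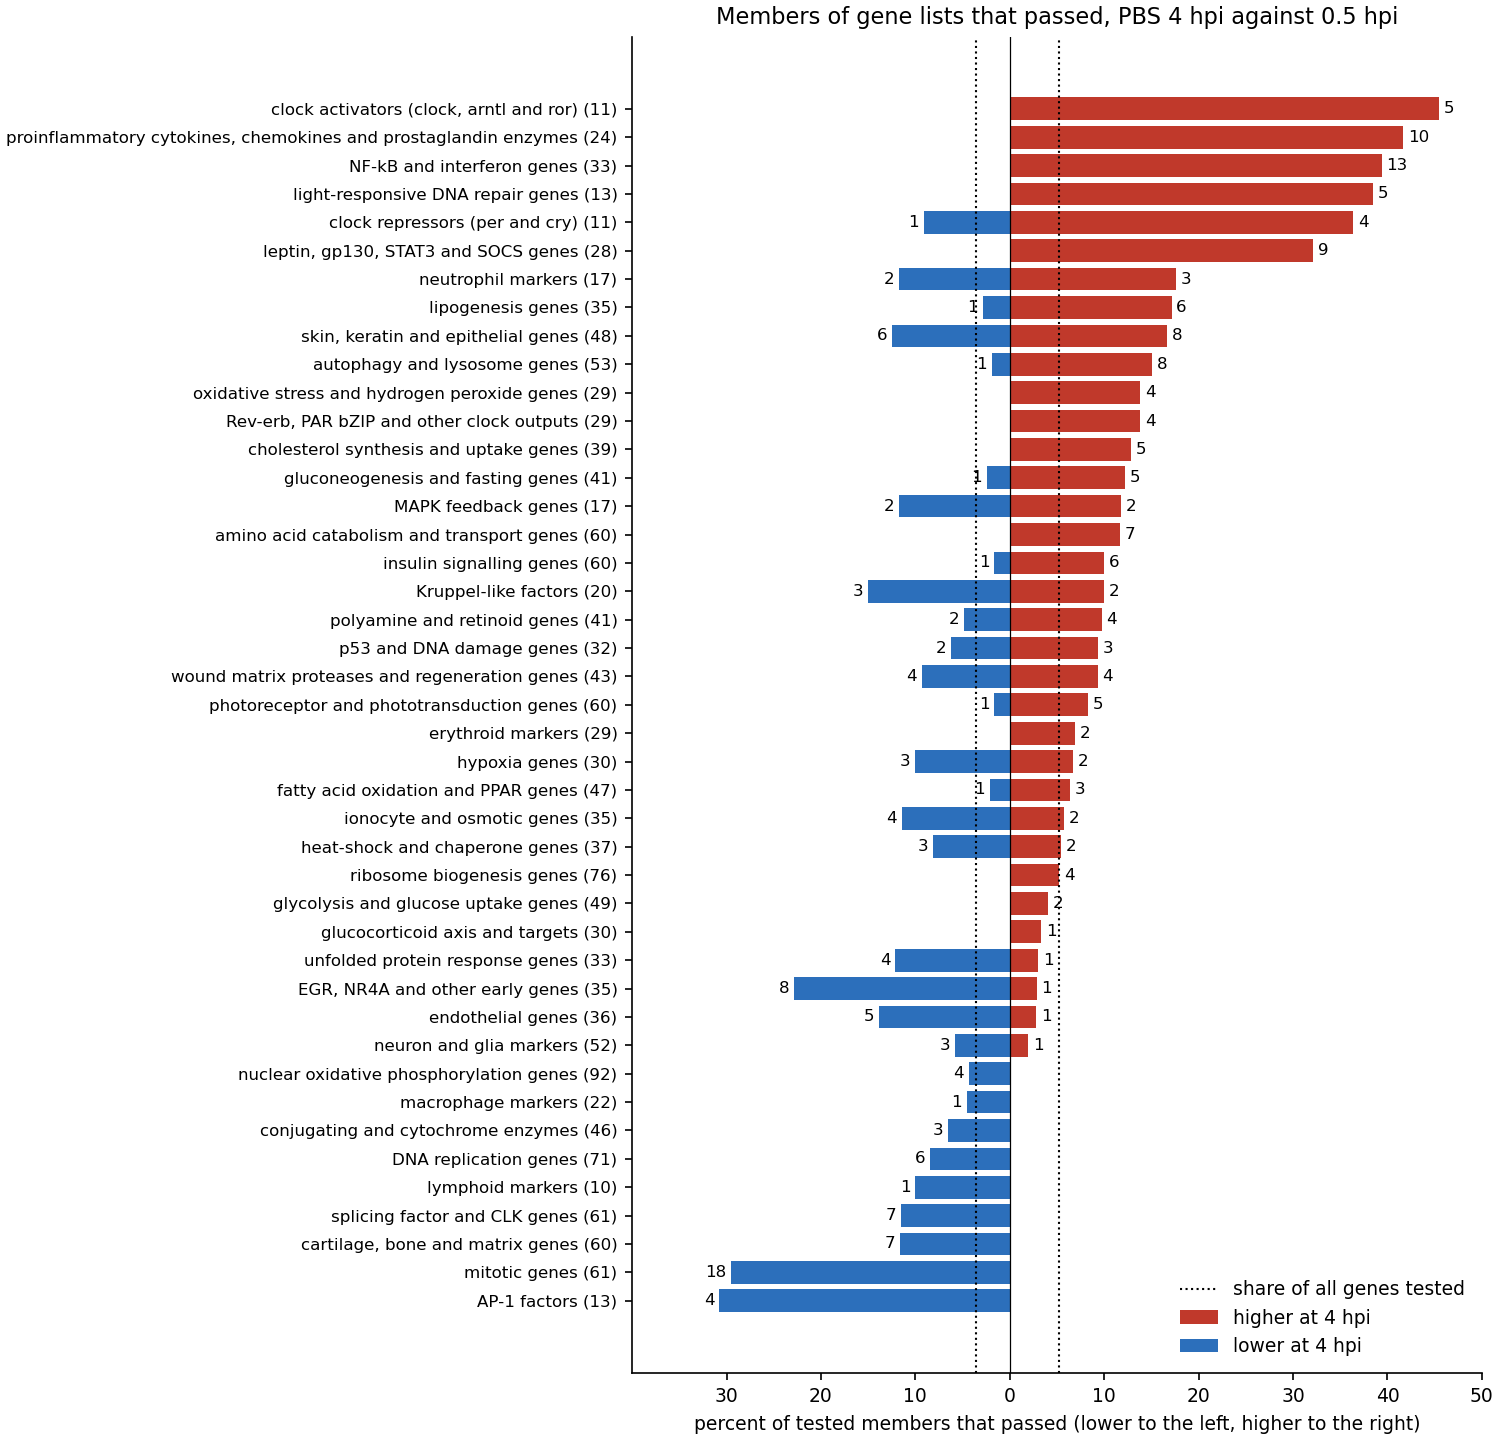
Share of tested members that passed in each gene list, higher at 4 hpi to the right (red) and lower to the left (blue), with the number of tested members in brackets and the number that passed at the bar's end. Dotted lines mark the shares over all genes tested, 5.24% higher and 3.54% lower; cytokine (10 of 24) and NF-kB (13 of 33) lists stand to the right and the mitotic list (18 of 61) to the left. Lists with no member passing are left out.

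The phosphatase gene of the series title, ptpn6, a brake on immune receptor signalling, has 2 gene IDs on chromosome 16, and reads may be split between them. ENSDARG00000089043 had 1.33, 0.816, 0.99 and 1.79 CPM at 4 hpi, against 2.59, 2.07 and 3.25 CPM at 0.5 hpi. It fell by 1.08 on the log2 scale (SE 0.31, adjusted p = 0.0377). ENSDARG00000013916 had 1.86, 1.43, 1.98 and 1.43 CPM at 4 hpi, against 4.51, 1.93 and 3.61 CPM at 0.5 hpi, with overlap, a log2 change of -0.96 and an adjusted p of 0.0554. The fall of the first ID did not pass in 6 of the leave-one-out fits, without replicate 1, 2 or 4 of 0.5 hpi (adjusted p = 0.0871, 0.0566 and 0.0806) or replicate 1, 2 or 3 of 4 hpi (0.0690, 0.125 and 0.0929). The exact permutation p was 0.0571 for this ID, the smallest possible, and 0.114 for ENSDARG00000013916.

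The course after PBS differed from the course after insulin, with which it shares no library. In insulin embryos 529 genes passed between 4 and 0.5 hpi (2.41%), 219 higher and 310 lower, and the difference between the PBS and insulin changes passed for 1563 genes (7.13%), with the PBS change above the insulin change in 948 (4.32%) and below it in 615 (2.80%). By library totals 1658 genes passed for the difference, 77.1% of them with the PBS change above, compared with 60.7% here, as the median difference moved to 0.11. Of the 1926 genes that changed after PBS, 840 (43.6%) had the same sign after insulin, 57 (3.0%) passed in the same direction there, or 10.8% of the insulin genes, and 80 (4.2%) passed in the opposite direction. The difference itself passed for 900 of them (46.7%). The 1150 genes higher after PBS had a median change of 0.76 after PBS and -0.05 after insulin, and the 776 lower genes -0.60 after PBS and 0.03 after insulin. These genes were picked for their change after PBS, and the difference uses the same PBS libraries. The share of 46.7% and the size of the PBS medians are therefore partly set by that choice. Samples enter the difference from all 4 groups, and 3 of the insulin libraries stood apart as replicate 1 of PBS at 0.5 hpi did.

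After insulin none of the 24 cytokine genes was higher and 1 was lower, and the 33 NF-kB genes gave the same counts. Over all genes 0.999% were higher and 1.41% lower after insulin, so these counts are near that share. The collagenase gene mmp13a averaged 144 ± 45.7 CPM at 4 hpi and 16.5 ± 1.56 CPM at 0.5 hpi after PBS (SD, n = 4 and 3), and 17.8 ± 2.50 CPM at 4 hpi and 10.9 ± 3.78 CPM at 0.5 hpi after insulin (SD, n = 4 each). The difference of the log2 changes was 2.42 (SE 0.36, adjusted p = 0.00116). For il1b the changes were 1.76 after PBS and -0.90 after insulin, a difference of 2.66 (SE 0.49, adjusted p = 0.00434), and for acsl4l 2.76 and 0.36, a difference of 2.40 (SE 0.26, adjusted p = 2.68e-05). Of the 24 cytokine genes the difference passed for 9, all with the higher change after PBS (4.32% of all genes), of the 33 NF-kB genes for 6 and of the 28 leptin and gp130 genes for 3. jak1 and stat3 rose after both injections, by 0.34 and 0.52 after PBS and by 0.37 and 0.55 after insulin. lepb averaged 0.991 ± 0.963 CPM at 4 hpi and 0.0293 ± 0.0585 CPM at 0.5 hpi after insulin (SD, n = 4 each) and did not pass there (edgeR adjusted p = 0.127), and the difference between the injections did not pass for it either (0.930). For timp2b, with 1.78 after PBS and 0.98 after insulin, both passed and the difference did not (adjusted p = 0.124).

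Several clock genes moved in opposite directions after the injections. per2 changed by 1.20 after PBS and -1.91 after insulin, a difference of 3.11 (SE 0.28, adjusted p = 4.94e-06), with 64.7 ± 5.08 CPM at 4 hpi and 243 ± 78.3 CPM at 0.5 hpi after insulin (SD, n = 4 each). A cry3 gene, cry1b and lonrf1l rose after PBS and changed by -2.25, -1.54 and -2.22 after insulin, with differences of 2.81, 2.51 and 2.98. per1b did not pass after PBS and fell to 56.3 CPM at 4 hpi, against 210 CPM at 0.5 hpi, after insulin, a difference of 1.79 (SE 0.14, adjusted p = 6.59e-07). Of the 29 output genes 4 passed after PBS, all higher (5.24% of all genes), and 17 after insulin, all lower (1.41% of all genes). The difference passed for 16 of the 29, all with the PBS change above (4.32% of all genes). Without the 4 libraries low in wdr90, 5 output genes were higher and 8 lower after PBS. cry2b fell after both, by 0.75 after PBS and 0.72 after insulin, and the difference of -0.03 had an adjusted p of 0.955.

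Part of the early genes fell after each injection. Of 13 tested AP-1 genes 4 were lower after PBS and 8 after insulin, and of 35 in the EGR list 8 after each. Over all genes 3.54% were lower after PBS and 1.41% after insulin. After PBS and insulin, the AP-1 medians were -0.22 and -1.74 and those of the EGR list -0.17 and -0.18. egr1 changed by -2.03 after PBS and -1.71 after insulin (difference -0.32, SE 0.23, adjusted p = 0.415), and btg2 by -1.53 and -2.0. The fall of fos was smaller after PBS, at -1.50, than after insulin, at -4.24, a difference of 2.74 (SE 0.51, adjusted p = 0.00781). fosb, which did not pass after PBS, changed by -3.53 after insulin, and the difference of 3.23 passed (adjusted p = 6.84e-04). Of the 776 genes lower after PBS, 27 (3.5%) passed as higher after insulin. Genes that fell after PBS and rose after insulin included serpinh1b, by -1.52 and 2.23 (difference -3.75, SE 0.34, adjusted p = 1.18e-05), clk4a, by -0.60 and 1.17, rbm4.2, by -1.0 and 0.82, safb, by -0.62 and 0.69, eif2ak3, by -0.59 and 0.79, and the stress gene nupr1, by -0.66 and 1.31. The genes named here are not the full set. serpinh1b averaged 12.8 ± 1.49 CPM at 4 hpi and 36.4 ± 8.33 CPM at 0.5 hpi after PBS (SD, n = 4 and 3), and 124 ± 50.5 CPM at 4 hpi and 26.3 ± 4.60 CPM at 0.5 hpi after insulin (SD, n = 4 each).

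**Figure D5:**
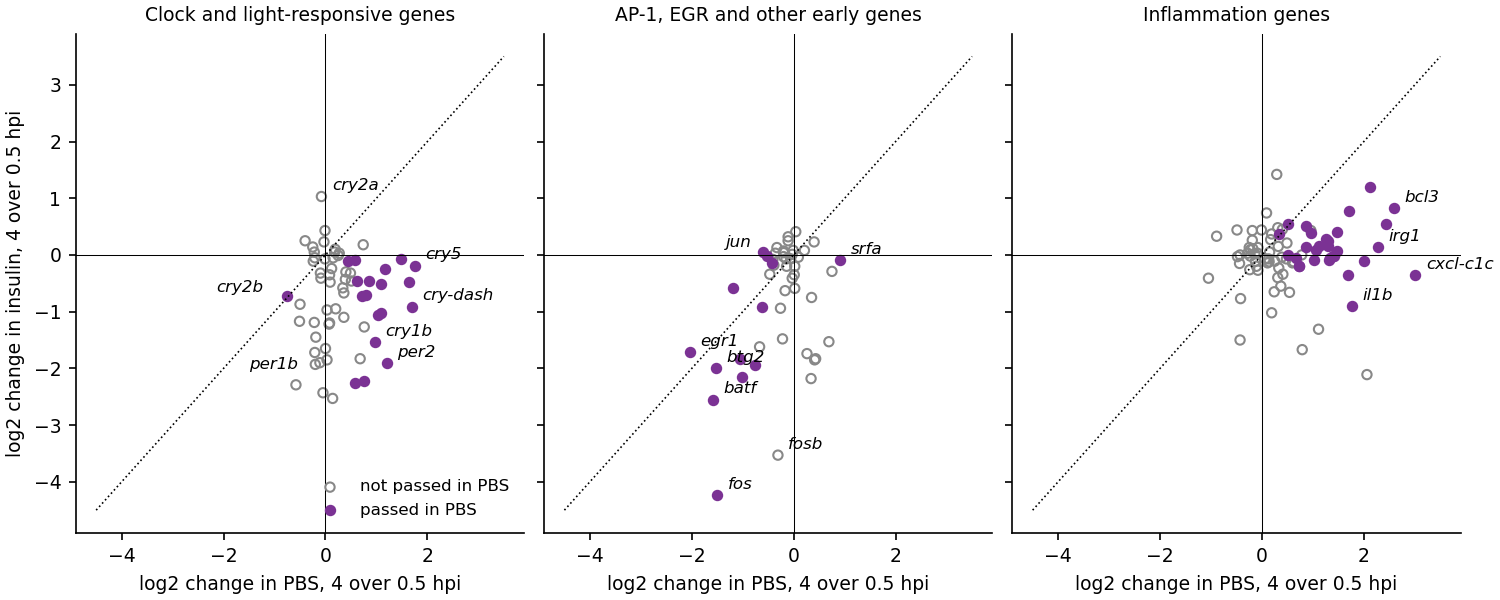
Log2 change from 0.5 to 4 hpi after PBS (x axis) and after insulin (y axis) for members of the clock, early and inflammation lists; filled points passed in the PBS comparison, open points did not, and the dotted line marks equal changes. Clock genes such as per2 (1.20, -1.91) lie at lower right, egr1 (-2.03, -1.71) lies near the line, and inflammation genes such as il1b (1.76, -0.90) lie to the right near or below 0; il11b and lepb, with few counts at 0.5 hpi, are left out.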

How the data were processed

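RNA of whole zebrafish embryos was sequenced on an Illumina platform, and the authors deposited raw gene counts, 1 table per library. The genome build was Zv9, per the submitters' processing notes. For the aligner, counter, annotation release and strand setting no source used here gives a name or version, so overlapping and antisense genes cannot be separated. The tables give chromosomes and symbols but no coordinates, and their closing size factor line, which names no gene, was not used.

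Counts of PBS 0.5 hpi replicates 2 and 3 were summed, leaving 15 libraries in 4 groups with 11 residual degrees of freedom. Of 31452 genes, 21929 passed edgeR's filterByExpr and were fitted with TMM scaling and the robust quasi-likelihood test (edgeR 4.0.16, R 4.3.3), with Benjamini-Hochberg adjustment over all 21929 and a threshold of 0.05. A positive log2 value means higher at 4 hpi. CPM use TMM-scaled library sizes, except for wdr90 in the description of the libraries, where totals were used. Counting intervals are for 95% and cover counting error only. Alternatives were other scaling and filters, limma voom 3.58.1, DESeq2 1.42.0, left-out libraries, a replicate block, a term for 4 libraries under 10 CPM of wdr90 and si:dkey-15h8.1, and, chosen after seeing the data, lanes. The fit was tested on simulated data.

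Members and the 52 gene lists (2122 of 2283 symbols matched, 92.9%) were chosen with earlier results of these data known. Genes named are the 10 with the largest change each way among those that passed with groups not overlapping and a mean of at least 1 on the log2 CPM scale, every clock list member that passed, up to 4 members with the smallest p from each other list, ptpn6, and the 6 with the smallest p each way for the difference; other genes were named after their values were seen, and 1 gene is not reported here.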

Additional observations from a re-analysis of the deposited data

Results flagged for a closer look

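Each value below, unless a single library is named, is the log2 change after PBS minus the log2 change after insulin in edgeR's quasi-likelihood fit, for genes given above whose difference passed at an adjusted p under 0.05. The difference passed for 1563 genes in all and for 107 of the 194 gene entries named here. Many of these entries were picked for their PBS change or for the difference itself, so the 107 are no separate result.

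Among wound and immune genes the values were 3.35 for cxcl-c1c, 2.66 for il1b, 2.42 for mmp13a, 1.76 for mmp9, 2.40 for acsl4l, 1.77 for bcl3, 2.13 for irg1, 4.17 for irg1l, 2.45 for ptgs2b, 1.04 for ptges, 2.02 for il34 ENSDARG00000091003 and 1.44 for si:ch211-122l24.4 ENSDARG00000090873. They were 1.12 for relb, 0.72 for rela, 0.93 for nfkb2, 0.93 for nfkbiaa, 1.14 for lifrb, 0.95 for socs3b, 1.13 for ncf1 and 1.99 for sele. The fitted value of 5.85 for il11b rests on few counts and depends on the prior count of the fit. The phosphatase gene ptpn6 ENSDARG00000013916 had -1.83.

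Among clock and light-responsive genes they were 3.11 for per2, 2.67 for per1a, 1.79 for per1b, 2.11 for per3, 1.45 for cry1a, 2.51 for cry1b, -1.11 for cry2a, 2.81 for cry3 ENSDARG00000024049, 1.03 for the gene clock, 0.55 for arntl1a, 0.97 for arntl1b, 1.31 for arntl2, 2.11 for npas2, 1.07 for rorab and 2.12 for rorcb. Output and repair genes had 1.59 for tefa, 1.43 for dbpa, 2.98 for lonrf1l, 1.72 for nr1d1, 0.67 for csnk1e, 2.60 for cry-dash, 1.95 for cry5, 1.58 for ddb2, 1.42 for xpc and 1.51 for ercc6.

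Early genes had 2.74 for fos, 3.23 for fosb, 2.52 for fosl1a, 1.19 for junbb, 2.26 for atf3, 1.00 for srfa, -0.65 for zfp36l2, -1.12 for klf2a, 1.90 for dusp5 and 0.84 for spred3. Metabolic and lysosomal genes had 1.91 for abca1a, 0.82 for ldlr, 1.59 for hsd17b12a, 1.29 for srebf1, 0.89 for fasn ENSDARG00000087657, 0.92 for fasn ENSDARG00000078895, 2.14 for lpin1, -2.04 for txnipb, 0.96 for foxo1a, 1.67 for fbxo32, 0.82 for pik3cb, 0.91 for ptpn11b, 1.35 for pfkfb3, 1.77 for odc1, 1.80 for mcoln1a, 1.16 for tfe3a, 0.70 for optn and -0.68 for atg5.

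Cell division, splicing and stress genes had -0.65 for dlgap5, -0.88 for tpx2, -0.95 for nusap1, -0.73 for plk1, -0.84 for ccnb1, -0.81 for cdk1, -1.03 for E2F3, -1.82 for rbm4.2, -1.76 for rbm4.1, -0.69 for clk2a, -1.76 for clk4a, -1.30 for safb, -1.38 for eif2ak3, -1.97 for nupr1 and 1.04 for hsf1. Matrix, skin and other genes had -3.75 for serpinh1b, -0.95 for serpinh1a, -1.43 for p4ha2, -1.48 for p4ha1b, -0.65 for plod1a, 0.87 for itga6b, 0.78 for cldn7b, -0.69 for col17a1b, -0.73 for krt1-19d, -1.25 for aplnrb, -3.01 for ponzr4, -1.83 for olfm2b, -1.78 for si:dkey-95h12.1, -2.15 for si:dkey-95h12.2, 2.35 for CABZ01087111.1, 1.15 for cbx7a and 1.22 for si:ch1073-228p2.2.

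Single libraries stood off from the others of PBS at 4 hpi in 5 of 194 gene entries and 52 list sums, by the gap to the nearest library over the range of the group (Dixon's ratio, above its 95% limit for 4 samples). Chance marks about 1 group in 20. hsf1 was lowest in replicate 4, at 33.1 CPM against 35.1 to 35.3 CPM in the others, a ratio of 0.909. si:ch211-122l24.4 ENSDARG00000090873 was highest in replicate 1, at 6.12 CPM, with a ratio of 0.880. The summed erythroid markers were highest in replicate 3, at 3200 CPM, with a ratio of 0.869. The summed oxidative stress genes were lowest in replicate 3, at 1562 CPM, with a ratio of 0.850, and the summed amino acid genes were highest in replicate 2, at 8590 CPM, with a ratio of 0.870.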

How the results depend on the processing

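The 164 genes that the naming rule picks for the PBS comparison kept their direction in all 4736 alternative values: 4329 stayed on the same side of the threshold, 404 lost the call and 3 gained it. Nearly all were picked for passing in the main fit and the alternatives reuse its libraries, so a kept direction is no separate support. With PBS 0.5 hpi replicates 2 and 3 kept as 2 libraries 2946 genes passed after PBS (1916 shared with the 1926), and without the 4 libraries that stood apart 2905 did (1729 shared). Correlations of the deviations of same-numbered libraries were -0.02, -0.07, -0.03 and 0.04, so no deviation shared by replicate number was seen. They cannot tell whether same-numbered pools were paired, as the labels do not say. A replicate block with the pair as 2 gave 3214 (1911 shared), 669 for insulin and 2278 for the difference. In the libraries with no lane, chosen as an alternative after seeing the data, 9, 0 and 0 genes passed for PBS, insulin and the difference (1501, 689 and 1178 at an unadjusted p under 0.05). Leaving out each library in turn gave 940 to 3329 genes for PBS, 257 to 765 for insulin and 925 to 2412 for the difference. None of these fits left out both PBS 0.5 hpi replicates 2 and 3. The insulin count was 833 by DESeq2, 266 with only its own groups, 318 with a lane term, and 1108 with a term for the libraries that stood apart, where the difference gave 2747, and 962 without those libraries. The cause was not tested in any of these. Promoter motifs were not run for want of sequence. Genes with few counts, such as il11b and il11a, limit what depth can show at 0.5 hpi.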
